A study of Mus musculus with 7 samples.

Results

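The step from late night into the first hours of light was followed in mouse liver as the difference in log2 signal between the array at ZT26 and the array at ZT22, where ZT is the time in hours after lights on and lights came on between the arrays, at ZT24. Of the 7 arrays of the series, these are the last 2. Each carried 1 pool, which mixed RNA of 5 livers (500 ng a liver) of C57/BL6 males that the labels give as 9 to 11 weeks old when housed for entrainment, and the ZT26 pool and the ZT22 pool came from different mice. All mice had 12 h of light and 12 h of dark for 2 weeks and, for 7 days, food only in the dark, from ZT12 to ZT24. The ZT26 livers were therefore taken 2 h into the light and without food, and the ZT22 livers in the dark with food, so that clock time, light and food cannot be told apart in the step. Affymetrix Mouse Gene 1.0 ST arrays were used, and the deposited values are on a log2 scale. Probe sets were kept when the annotation gave them 1 gene symbol and their mean over the 7 arrays was above 85 units on the natural scale, which left 12076 probe sets from 10966 genes, of 19938 genes with a probe set of 1 symbol. Mical1 lay just above the minimum, with a mean of 85.01 units and a step of 0.14, and Ggn just below it, with 84.998 units and a step of -0.14. Where a gene had several probe sets, the one with the highest mean was used.

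With 1 array per time there is no replicate error and no p-value. The ZT02 array, from mice of the same clock hour on the day before, served as a measure of noise. Its difference from ZT26 also holds whatever truly differed between those pools, and it shares the ZT26 array with the step. Over the 12076 probe sets ZT26 minus ZT02 had a robust SD of 0.12 (the median absolute deviation scaled to an SD) and a plain SD of 0.17, and 99% of its absolute values were below 0.52. The robust SD was 0.16 in the lowest of 10 bins of probe sets by mean signal and 0.09 in the highest. A gene is said below to have risen or fallen when ZT26 was at least 1.5-fold above or below ZT22, which is 0.58 in log2 and lies between 3.56 and 6.75 times the robust SD from the lowest bin to the highest. All array medians over all features lay between 6.37 and 6.40. Over the tested probe sets they lay between 8.31 and 8.40, with 8.40 at ZT26 and 8.36 at ZT22. The ZT26 array correlated at 0.993 with both other arrays. The 14 tested plasma protein genes that mark hepatocytes, such as Alb for albumin (14.02 at both ZT26 and ZT22), had steps from -0.08 to 0.07. These signals lie near the top of the tested range, which ends at a mean of 18300 units, so they check the tissue and not the stability of the arrays.

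In liver cells the circadian clock is a loop in which BMAL1 (gene Arntl) and CLOCK activate the genes of their own repressors, PER, CRY and the REV-ERB nuclear receptors (Nr1d1 and Nr1d2), through E-box elements, while REV-ERB and ROR proteins compete at other elements to repress or activate Arntl. The liver of a nocturnal animal also passes from storage to release of fuel when feeding stops. In the fed state insulin favours glycogen and fat synthesis and keeps FoxO factors out of the nucleus. In fasting, FoxO factors, PPAR-alpha and the hormones of fasting turn on genes for fat oxidation and glucose output.

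Few genes moved in this step. By probe sets, 68 (0.563%) rose and 38 (0.315%) fell, which together is 106 of 12076 (0.878%), and 13 and 11 of them changed at least 2-fold. By genes, 67 rose (0.611%) and 38 fell (0.347%). Between the same clock hours on consecutive days, ZT26 minus ZT02, 80 probe sets (0.662%) passed 1.5-fold, 43 higher (0.356%) and 37 lower (0.306%), from 43 genes (0.392%) and 35 genes (0.319%). The count for the step therefore exceeded that of the noise comparison by only 26 probe sets, and the excess was in the higher direction. With the arrays centred on their medians the step had 54 higher and 44 lower, and with repeated quantile normalization 66 and 42. Robust SDs were 0.11 for the step and 0.12 for ZT26 minus ZT02, and the median step was 0.00. The widest steps stood apart from this background: the largest rise was 2.81 and the largest fall -2.28 in log2, and all 24 probe sets past 2-fold in the step compare with 14 in ZT26 minus ZT02. At the edge of 1.5-fold, Trim13 rose by 0.59 and Mrnip, at 0.58, did not pass, while Slc16a5 fell by 0.59 and Cxcl17, at -0.58, did not.

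**Figure D1:**
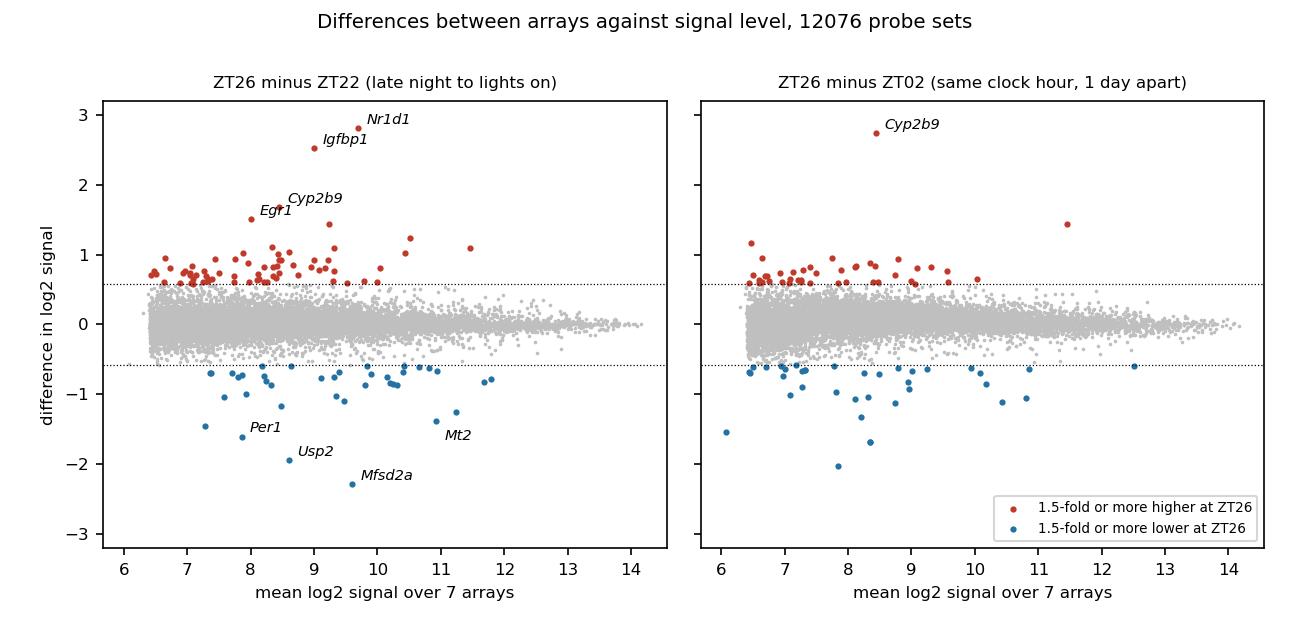
Difference in log2 signal (vertical axis) against the mean log2 signal over 7 arrays (horizontal axis) for 12076 probe sets, for ZT26 minus ZT22 (left) and ZT26 minus ZT02 (right). Each point is a probe set, dotted lines mark 1.5-fold, and 106 probe sets lie outside them on the left and 80 on the right, with Nr1d1 (2.81) and Mfsd2a (-2.28) the extremes of the step.

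The other 4 h steps of the day were larger or alike in number. From ZT02 to ZT06 135 probe sets (1.12%) passed 1.5-fold, then 361 (2.99%) to ZT10, 452 (3.74%) to ZT14, 302 (2.5%) to ZT18 and 125 (1.04%) to ZT22, before the 106 of the step from ZT22 to ZT26. Consecutive steps share an array, so their counts are not independent. The step into the light moved the fewest probe sets of the 6. Like the step from ZT14 to ZT18 (207 higher, 95 lower), it was 1 of 2 with over 1.5 times as many higher as lower. For the step into the light that excess depended on the scaling. It was smaller with the arrays centred on their medians (54 higher and 44 lower), which moved a median step of 0.00 by 0.04. With repeated quantile normalization there were 66 higher and 42 lower.

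**Figure D2:**
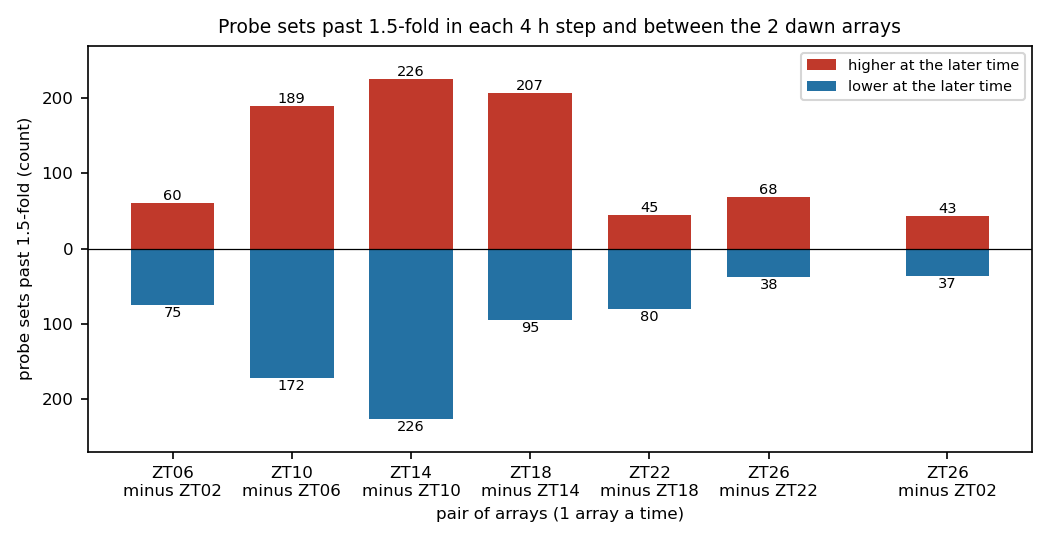
Number of probe sets (vertical axis) at least 1.5-fold higher (upward bars) or lower (downward bars) at the later time of each pair of arrays (horizontal axis), with 1 array per time. The step from ZT22 to ZT26 had 68 higher and 38 lower, and ZT26 minus ZT02 on the right, the same clock hour on consecutive days, 43 and 37.

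Repressor genes of the clock moved in opposite directions, while its activators stayed within 1.5-fold. Of 10 tested repressors of the clock, 2 rose and 6 fell, with a median step of -1.01, and none of 3 tested activators did (over all genes 0.611% rose and 0.347% fell, with a median of 0.00). Nr1d1, which encodes REV-ERB-alpha, had a log2 signal of 10.32 at ZT26, against 7.51 at ZT22, a 7.02-fold rise and the largest of any gene. Its level at ZT02 was 10.52, so both dawn arrays stood far above the late-night one, and the step was 30.7 times the noise SD of genes at its level. Nr1d2, for REV-ERB-beta, had 8.75 at ZT26, against 7.82 at ZT22 (1.90-fold), with 8.80 at ZT02. Over the 7 arrays in time order Nr1d1 had 10.52, 11.60, 11.17, 9.55, 7.21, 7.51 and 10.32, and Nr1d2 had 8.80, 10.09, 10.86, 9.66, 8.53, 7.82 and 8.75. Both were thus on their way up at ZT26, Nr1d1 from a trough at ZT18 and Nr1d2 from one at ZT22.

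The Period genes fell together. Per1 had 6.37 at ZT26, against 7.98 at ZT22 (3.04-fold lower, with 6.82 at ZT02). Per2 had 7.29 at ZT26, against 8.46 at ZT22 (2.25-fold lower, 7.08 at ZT02), and Per3 had 6.05 at ZT26, against 7.09 at ZT22 (2.04-fold lower, 6.24 at ZT02). All 3 encode the repressors that bind CRY proteins and return to the nucleus at night. Ciart, for the repressor CHRONO, had 5.35 at ZT26, against 6.81 at ZT22, and 5.09 at ZT02. Its ZT26 and ZT02 values are below the background of 43 units, so its 2.75-fold fall rests on a value at background, and another probe set of Ciart had a step of -0.26. Bhlhe40, for the E-box-binding repressor DEC1, had 8.43 at ZT26, against 9.45 at ZT22 (2.03-fold lower), with 8.44 at ZT02. Cry1 had 7.91 at ZT26, against 8.91 at ZT22 (2.00-fold lower), with 7.82 at ZT02. These genes came down from different places in their cycle, since Per1, Per3 and Ciart were highest at ZT10, Per2 and Bhlhe40 at ZT14, and Cry1 at ZT18.

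The other clock genes stayed within 1.5-fold. Cry2 had 8.27 at ZT26, against 8.67 at ZT22, and Nfil3, a bZIP repressor, 9.33 at ZT26, against 8.98 at ZT22, steps of -3.35 and 2.93 noise SDs. Among activators, Arntl had 8.94 at ZT26, against 8.81 at ZT22 and a lowest value of 5.29 at ZT10, Clock had 10.03, against 10.10, and Rora, a ROR receptor, 9.69 at both. Arntl and Clock were at the flat top of their cycle on both sides of lights on. Rora ranged only from 9.35 at ZT14 to 9.73 at ZT02. In ZT02 minus ZT22, which shares the ZT22 array with the step, 2 repressors were higher and 6 lower (over all genes 0.401% and 0.474%). In ZT26 minus ZT02 none passed (over all genes 0.392% higher and 0.319% lower). In ZT02 minus ZT18, made of arrays the step does not use, 2 of the 10 repressors were higher and 7 lower, with a median of -1.17 (over all genes 1.06% higher and 1.67% lower).

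**Figure D3:**
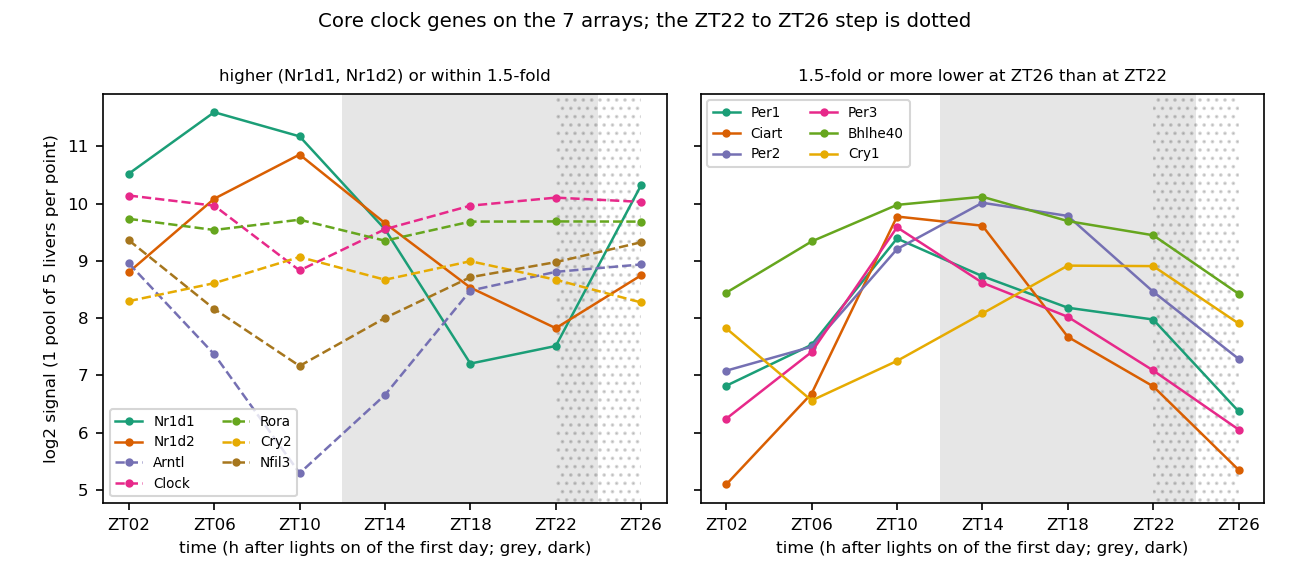
Log2 signal (vertical axis) of core clock genes on the 7 arrays in order of time (horizontal axis), 1 pool of 5 livers per point, with the dark phase in grey and the interval from ZT22 to ZT26 dotted. Solid lines are genes that changed at least 1.5-fold between ZT22 and ZT26, with Nr1d1 at 10.32 at ZT26 and 7.51 at ZT22 on the left and the 6 genes that fell on the right, and dashed lines are genes that stayed within it.

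The regulatory letters upstream of the clock genes that moved are shown because E-boxes, D-boxes and ROR elements are the sites through which this loop is known to run. The stretches below are the 250 bases before the start of the gene in RefSeq on GRCm38.p6, printed 5′ to 3′ on the strand of the gene, with the matches to the motif named for each gene in capitals. Per1 (chr11:69098699-69098948, plus strand) holds 1 E-box, CACGTG, 166 to 161 bases before the start. Ciart (chr3:95882229-95882478, minus strand) holds 3, and Cry1 (chr10:85185055-85185304, minus strand) holds 1 at 60 to 55 bases. Per3 (chr4:151044666-151044915, minus strand) holds 2 copies of the D-box TTATGTAA, the element of DBP, TEF, HLF and NFIL3. Nr1d2 (chr14:18239107-18239356, minus strand) holds the core of the ROR element, AGGTCA, at 77 to 72 bases.
Per1: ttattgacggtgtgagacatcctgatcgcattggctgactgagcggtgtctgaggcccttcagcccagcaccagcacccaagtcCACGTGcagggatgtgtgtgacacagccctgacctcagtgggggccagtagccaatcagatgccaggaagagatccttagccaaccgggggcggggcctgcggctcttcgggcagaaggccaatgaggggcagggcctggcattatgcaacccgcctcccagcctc
Ciart: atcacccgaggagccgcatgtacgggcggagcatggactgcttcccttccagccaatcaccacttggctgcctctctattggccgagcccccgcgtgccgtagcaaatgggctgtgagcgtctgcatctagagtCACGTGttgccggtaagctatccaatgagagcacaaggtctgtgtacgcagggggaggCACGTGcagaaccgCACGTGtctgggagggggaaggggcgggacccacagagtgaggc
Cry1: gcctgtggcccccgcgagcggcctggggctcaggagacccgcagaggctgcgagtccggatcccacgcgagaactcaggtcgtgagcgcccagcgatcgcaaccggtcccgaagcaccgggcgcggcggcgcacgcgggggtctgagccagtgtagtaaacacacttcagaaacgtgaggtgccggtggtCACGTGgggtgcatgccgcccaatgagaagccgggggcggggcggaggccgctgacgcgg
Per3: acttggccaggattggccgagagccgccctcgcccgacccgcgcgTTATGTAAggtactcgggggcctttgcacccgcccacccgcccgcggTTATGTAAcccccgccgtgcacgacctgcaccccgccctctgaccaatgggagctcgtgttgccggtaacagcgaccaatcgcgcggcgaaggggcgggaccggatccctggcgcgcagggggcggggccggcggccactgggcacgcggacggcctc
Nr1d2: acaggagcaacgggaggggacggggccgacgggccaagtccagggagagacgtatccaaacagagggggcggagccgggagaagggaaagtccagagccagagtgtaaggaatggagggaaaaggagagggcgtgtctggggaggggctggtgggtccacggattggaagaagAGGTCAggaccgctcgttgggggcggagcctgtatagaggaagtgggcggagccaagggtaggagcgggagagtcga
Both strands were searched, and CACGTG reads the same on each. Nr1d1 had no match to these 3 motifs in its 250 bases, and Per2 and Bhlhe40 are named only. CACGTG was held by 7 of the 27 genes that fell and had a promoter entry (25.9%), by 2 of the 47 that rose (4.26%) and by 10.2% of all 8795 tested genes with an entry. TTATGTAA was found in 1 of the 27 that fell (3.7%), in 0 of the 47 that rose and in 0.637% of all. AGGTCA was found in 4 of the 27 that fell (14.8%), in 8 of the 47 that rose (17.0%) and in 13.7% of all. The FoxO element TGTTTAC was in 3 of the 47 that rose (6.38%), in 1 of the 27 that fell (3.7%) and in 2.91% of all. The heat shock core GAANNTTC was in 4 of the 47 (8.51%), in 2 of the 27 (7.41%) and in 6.17% of all, the CRE TGACGTCA in 1 of the 47, in 0 of the 27 and in 2.91% of all, and the sterol element TCACCCCAC in 0 of either and 0.671% of all. None of these letter strings contains another. Of the genes printed, Per1 also holds 1 match to AGGTCA and Cry1 1 to TGTTTAC, both read on the other strand and left in lower case. A match describes these letters only and is no evidence of binding.

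Clock output genes fell in part. Of 7 tested genes on a list of PAR bZIP factors and genes taken as their targets, 2 fell and all 7 had negative steps, with a median of -0.43. The share of negative steps over all genes was not counted, and regulation of the listed genes by these factors was not tested. Over all genes 0.347% fell, with a median of 0.00. Usp2, a ubiquitin-specific protease, had 6.87 at ZT26, against 8.81 at ZT22, a 3.84-fold fall, with 6.66 at ZT02. Tspan4, a tetraspanin, had 10.53 at ZT26, against 11.19 at ZT22 (1.59-fold lower). Dbp and Tef, the factors themselves, were within 1.5-fold with steps of -0.44 and -0.43. In ZT02 minus ZT18, 6 of the 7 were at least 1.5-fold lower (over all genes 1.67%). Among other genes that the clock is known to drive, Noct, for the phosphatase nocturnin, had 7.25 at ZT26, against 8.12 at ZT22 (1.83-fold lower), and Rgs16, a regulator of G protein signalling, had 7.80 at ZT26, against 6.77 at ZT22 (2.06-fold higher), far below its 11.38 at ZT10.

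Igfbp1, Depp1 and Arrdc3 were among the largest rises. Igfbp1, whose secreted product binds insulin-like growth factors and whose transcription in liver insulin represses, had 10.68 at ZT26, against 8.16 at ZT22, a 5.74-fold rise, with 10.91 at ZT02. It was lowest at ZT14 (6.87), early in the feeding phase. Depp1, a FoxO target, followed the same course, with 10.51 at ZT26, against 9.07 at ZT22 (2.72-fold), 10.50 at ZT02 and 6.87 at ZT14. Arrdc3, an arrestin-domain protein, had 10.70 at ZT26, against 9.47 at ZT22 (2.36-fold), and 10.58 at ZT02. ZT26 minus ZT02 was -0.23 for Igfbp1, 0.02 for Depp1 and 0.12 for Arrdc3, so the 2 dawn arrays lay close together. Depp1 and Arrdc3 are on none of the lists. Of 18 tested genes on the list of insulin and fasting responses, only Igfbp1 and Gadd45g rose, only Ddit4 fell, and 15 did not pass. Over all genes 0.611% rose and 0.347% fell. Gadd45g, a growth arrest and stress gene, had 8.26 at ZT26, against 7.38 at ZT22. Ddit4, an inhibitor of mTOR signalling, had 7.05 at ZT26, against 7.74 at ZT22. Irs2, an adaptor of the insulin receptor, had a step of 0.52, and the list's median was 0.11.

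Some genes for storing glycogen fell, and no gene of glucose output passed. Of 13 tested genes of glycolysis and glycogen, 3 fell and none rose, with a median of -0.08 (over all genes 0.347% and 0.611%). Ppp1r3b, which targets protein phosphatase to glycogen and so promotes its synthesis, had 9.64 at ZT26, against 10.50 at ZT22 (1.82-fold lower), with 9.55 at ZT02. Ppp1r3c, another such subunit, had 10.26 at ZT26, against 10.86 at ZT22 (1.52-fold lower), and Pfkfb3, whose product makes an activator of glycolysis, 6.47 at ZT26, against 7.16 at ZT22 (1.62-fold lower). With ZT02 in place of ZT26 neither passed (-0.40 for Ppp1r3c and -0.55 for Pfkfb3). In ZT02 minus ZT22 1 of the 13 was lower, Ppp1r3b (-0.95), and 1 higher, Ppp1r3g (0.88, over all genes 0.474% and 0.401%). The glycogen synthase gene Gys2 had a step of -0.08. None of 12 gluconeogenesis genes passed. Pck1, which commits carbon to glucose, was 12.12 at ZT26, against 12.53 at ZT22, but 12.72 at ZT02, so that ZT02 minus ZT22 was 0.19 where the step was -0.41, and G6pc, which frees glucose, 13.27, against 13.26.

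**Figure D4:**
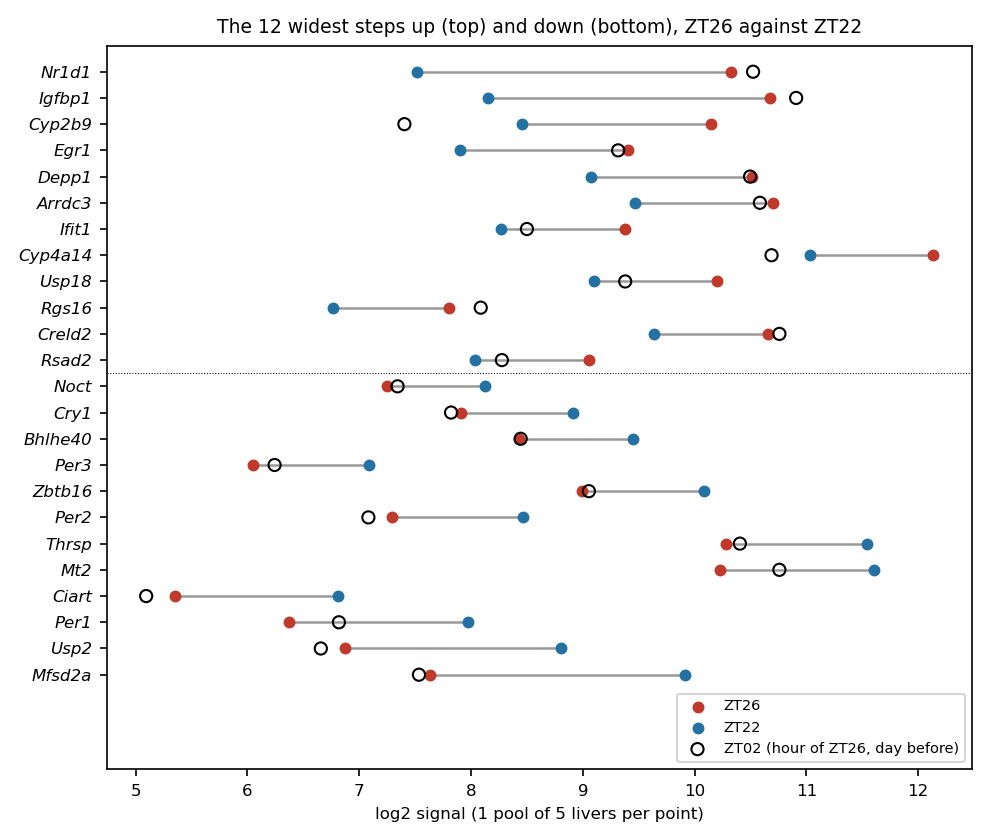
Log2 signal (horizontal axis) at ZT26 (red), ZT22 (blue) and ZT02 (open circles) of the 12 genes with the widest rise (above the dotted line) and the 12 with the widest fall (below it), 1 pool of 5 livers per point. For most genes the open circle lies near the ZT26 point, as for Igfbp1 (10.68 and 10.91), but for Cyp2b9 (10.14 and 7.40) and Cyp4a14 (12.13 and 10.69) it lies beyond the ZT22 point.

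Among fat genes, 3 of 20 in oxidation and ketogenesis rose (over all genes 0.611%) and none fell (median 0.14). Of 21 in synthesis and storage only Thrsp fell (over all genes 0.347%) and none rose (median -0.03). Cyp4a14, a fatty acid hydroxylase and PPAR-alpha target, had 12.13 at ZT26, against 11.03 at ZT22 (2.15-fold), but 10.69 at ZT02. Vnn1, a pantetheinase, had 10.16 at ZT26, against 9.35 at ZT22 (1.75-fold), and 9.51 at ZT02. The ZT26 values of Cyp4a14 and Vnn1 were 1.44 and 0.65 above ZT02, and in ZT26 minus ZT02 4 genes of the list passed upward (over all genes 0.392%). In ZT02 minus ZT22 none of the 20 was higher and 1 was lower, with a median of 0.01 (over all genes 0.401% and 0.474%). The rise of this list was thus seen with the ZT26 array and not with ZT02. Pdk4, which blocks entry of pyruvate into the mitochondrial cycle, had 9.60 at ZT26, against 8.92 at ZT22 (1.61-fold), and 9.33 at ZT02. Cpt1a, the gate of mitochondrial fat oxidation, had a step of 0.26.

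The lipogenic regulator Thrsp had 10.28 at ZT26, against 11.54 at ZT22 (2.39-fold lower), with 10.41 at ZT02, whereas Fasn (0.03), Scd1 (0.05) and Srebf1 (-0.07), for the enzymes and the regulator of fat synthesis, had steps near 0. Mfsd2a, which imports lysophospholipids, had the largest fall, to 7.64 at ZT26, against 9.92 at ZT22 (4.85-fold lower). Its 7 values in time order were 7.53, 8.66, 11.39, 11.62, 10.41, 9.92 and 7.64, so both dawn arrays lay far below every other. Angptl8, a feeding-induced secreted protein named here after its values were seen, had 10.27 at ZT26, against 10.88 at ZT22. None of 20 genes of cholesterol synthesis passed (over all genes 0.611% rose and 0.347% fell). Of them 16 had positive steps, led by Hmgcs1 (11.96 at ZT26, against 11.60 at ZT22), but the share over all genes was not counted. The median was 0.10, or 0.06 with the arrays centred on their medians, both below the robust SD of the noise (0.12).

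Of 12 tested glucocorticoid-induced genes, 4 fell and none rose (over all genes 0.347% and 0.611%). The list's median step was -0.42, and the 8 that did not pass had steps down to -0.46 and up to -0.10. Besides Per1, which this list shares with the clock, the metallothionein Mt2 had 10.22 at ZT26, against 11.61 at ZT22 (2.61-fold lower), Zbtb16, a zinc-finger repressor, 8.99 at ZT26, against 10.08 at ZT22 (2.13-fold lower), and Tsc22d3, for the leucine zipper GILZ, 8.79 at ZT26, against 9.54 at ZT22. Fkbp5, a chaperone partner of the glucocorticoid receptor, and Sgk1, a kinase, did not pass, with steps of -0.46 and -0.40. Nor did Mt1, the other metallothionein on the list, with -0.10. For Mt2 ZT22 was the highest of the 7 arrays and ZT26 the lowest, and ZT02 lay between at 10.76. In ZT26 minus ZT02 2 of the 12 were at least 1.5-fold lower (over all genes 0.319%), with a list median of -0.22. These 2, Dusp1 (-0.63) and Lcn2 (-0.82), are not among the 4 that fell in the step. In ZT02 minus ZT22 3 were lower and 1 higher (over all genes 0.474% and 0.401%).

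Of 11 immediate early genes and SRF targets, 2 rose and none fell (over all genes 0.611% and 0.347%). Egr1, a zinc-finger transcription factor, had 9.40 at ZT26, against 7.90 at ZT22 (2.84-fold), with 9.32 at ZT02 and a lowest value of 6.23 at ZT14. Jun, a subunit of AP-1, had 8.15 at ZT26, against 7.55 at ZT22, and 8.58 at ZT02. With the arrays centred on their medians its step was 0.56 and did not pass. The 9 other tested members of the list, which includes targets of SRF such as Actb (-0.03), did not pass. Btg2, an antiproliferative early gene on the cell cycle list, had 8.76 at ZT26, against 7.93 at ZT22 (1.77-fold), and 9.26 at ZT02. Nr4a1, an early gene for an orphan nuclear receptor named after its values were seen, had 7.21 at ZT26, against 6.38 at ZT22, and was higher still at ZT02 (8.23).

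Of 21 endoplasmic reticulum genes only Creld2, a secreted chaperone-like protein, rose (over all genes 0.611%). It had 10.66 at ZT26, against 9.64 at ZT22 (2.03-fold), and 10.76 at ZT02. Dnajb9 (0.51), Manf (0.49) and Hspa5 (0.35), which also act in protein folding there, had steps of the same sign without passing, and the list's median was 0.12. Creld2 was highest at ZT14 (11.34) and ZT18 (11.32), and lowest at ZT10 (9.06) and next at ZT22. Alas1, the first and limiting enzyme of heme synthesis, was the only gene of the xenobiotic and iron and heme lists to fall, with 10.69 at ZT26, against 11.51 at ZT22 (1.77-fold lower), and 10.69 at ZT02.

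Lists for housekeeping and many metabolic functions had no member past 1.5-fold. They were heat shock chaperones (15 tested), ribosome biogenesis (21), cytosolic ribosomal proteins (20), bile acids (14), amino acid breakdown and the urea cycle (20), NAD synthesis and sirtuins (14), autophagy (17), conjugation and glutathione (19), tubulins (8), cold-inducible RNA-binding proteins (2) and acute phase proteins (15). Over all genes only 0.611% rose and 0.347% fell, so lists this short would seldom hold such a gene. The absence is therefore no result about these functions. Cyp7a1, which limits the making of bile acids from cholesterol, had 11.26 at ZT26, against 11.69 at ZT22, a step of -0.43. Atg14, which starts autophagosomes, had 8.18 at ZT26, against 7.77 at ZT22, a step of 0.41. The widest step among these lists was that of Saa1, a serum amyloid gene near background, with 5.64 at ZT26, against 6.21 at ZT22 (-0.57, or -0.61 with the arrays centred on their medians, which passes). Its ZT02 value was 7.18, so that ZT02 minus ZT22 was 0.98 and its direction turned on the other dawn array. Others at the edge of their lists were Acmsd of the NAD pathway (-0.40), Prodh of proline breakdown (-0.38), Nolc1 of the nucleolus (-0.36), the small heat shock gene Hspb1 (-0.33) and the sulfotransferase Sult1d1 (-0.31).

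A set of interferon-stimulated genes gave 16 of the 67 rises and was highest on the ZT26 array. The list of 51 such genes, effectors and sensors of antiviral defence, was drawn up after the rises had been seen, so its count describes and does not test. Of 40 tested, 16 rose and none fell, with a median step of 0.49. Over all genes 0.611% rose and 0.347% fell, with a median of 0.00. Ifit1, which binds viral RNA, had 9.38 at ZT26, against 8.27 at ZT22 (2.16-fold), and 8.50 at ZT02. Usp18, which removes ISG15 from proteins, had 10.20 at ZT26, against 9.10 at ZT22 (2.14-fold), and 9.38 at ZT02. Rsad2, for the antiviral enzyme viperin, had 9.06 at ZT26, against 8.04 at ZT22 (2.03-fold), and 8.28 at ZT02. In these 3 genes ZT02 stood nearer to ZT22 than to ZT26, unlike in Nr1d1, Igfbp1 and Egr1.

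Over the list the median of ZT26 minus ZT02 was 0.45, and 16 of 40 were at least 1.5-fold higher. Over all genes that median was 0.04, and 0.392% were higher. The list's median was 0.00 in ZT02 minus ZT22 and -0.02 in ZT02 minus ZT18, each with none past 1.5-fold. The ZT26 array was the highest of the 7 for 36 of the 40 genes (over all genes 19.3%) and ZT14 the lowest for 32 (over all genes 17.7%), though genes seen to be high at ZT26 had led to the list. Irf7, a transcription factor that amplifies the response, had 8.88, 9.09, 9.00, 8.76, 9.25, 8.91 and 9.69 in time order, so ZT26 was the highest and ZT18 the next. Stat2 and Irf9, partners in the factor that binds interferon response elements, had steps of -0.01 and 0.54. Without the list, 52 probe sets rose instead of 68, and 38 fell as before. The list is not complete, so the 52 are not free of interferon-induced genes. They include Cxcl10 (0.65), Trim12a (0.77) and Trim30d (0.61), each highest at ZT26.

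Markers of other cell types are given beside these genes, where over all genes 0.611% rose and 0.347% fell in the step. None of 10 tested Kupffer cell markers passed, and their summed signal was 9137 units at ZT26, against 8896 at ZT22, with 8146 at ZT02. ZT26 was above ZT02 for 9 of the 10, with a median of 0.18. Over all genes the median of ZT26 minus ZT02 was 0.04. The share of all genes above ZT02 was not counted, so the sign counts of markers have no baseline. None of 5 tested lymphocyte markers passed, with 706 units at ZT26, against 634 at ZT22 and 704 at ZT02 (median of ZT26 minus ZT02 0.19), and Cd3e, of the T cell receptor complex, had a step of 0.20. Endothelial markers (10 tested) summed to 8814 units at ZT26, against 9753 at ZT22 and 7804 at ZT02, with ZT26 above ZT02 for 10 of 10 (median 0.17). None of 9 stellate cell, 1 bile duct, 1 red blood cell and 3 pancreas and fat markers tested passed either, and no neutrophil marker was above the minimum on average. The summed signal of the 40 interferon-stimulated genes was 31489 units at ZT26, against 24291 at ZT22, with 25022 at ZT02. In tissue, more cells of a type and more RNA per cell cannot be told apart, and the part of any cell type in these rises was not tested.

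**Figure D5:**
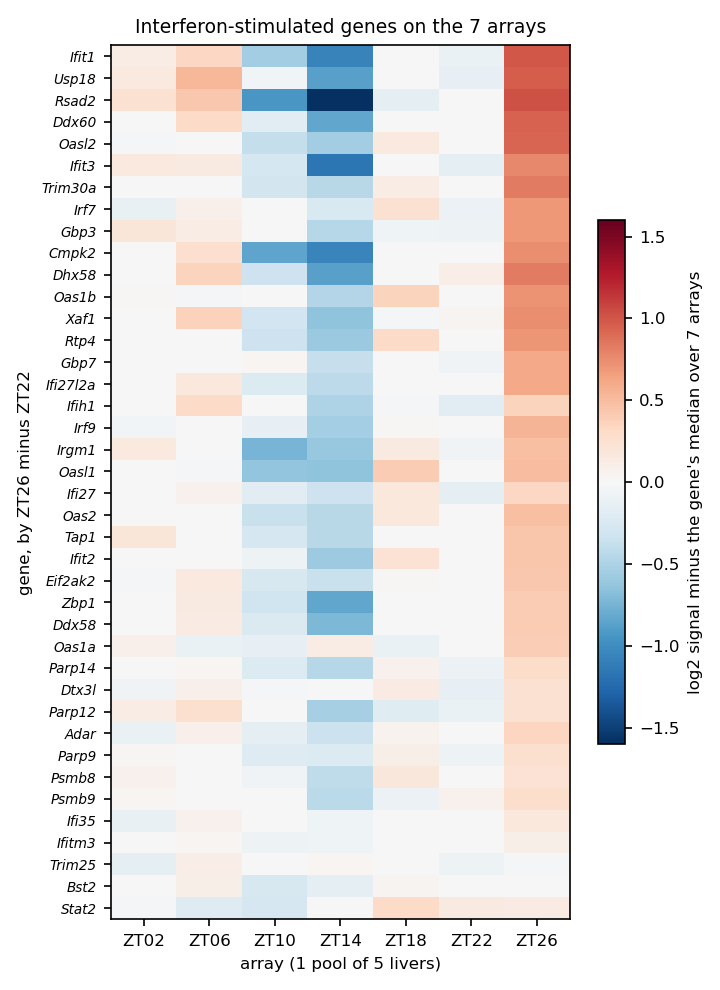
Log2 signal of 40 interferon-stimulated genes (rows, from the largest step at the top) on the 7 arrays (columns, 1 pool of 5 livers each), as the difference from the gene's median over the 7 arrays (colour scale). The ZT26 column is the highest for 36 genes and the ZT14 column the lowest for 32.

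Upstream sequences of 2 of these genes are shown as those with the most matches among the interferon-stimulated genes searched for a motif that under 50% of the set holds. Stretches are as above, with matches to the interferon response core, GAAANNGAA on either strand, in capitals. The motif was chosen after the genes had been seen. Ifit1 (chr19:34640639-34640888, plus strand) and Ifit3 (chr19:34583279-34583528, plus strand) hold 3 matches each, all read on the other strand, and the first 2 of Ifit1 overlap.
Ifit1: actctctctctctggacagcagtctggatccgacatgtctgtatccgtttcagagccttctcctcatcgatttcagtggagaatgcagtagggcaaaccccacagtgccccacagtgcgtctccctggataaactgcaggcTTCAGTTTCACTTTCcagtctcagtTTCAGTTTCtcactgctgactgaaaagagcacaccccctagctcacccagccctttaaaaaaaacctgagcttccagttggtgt
Ifit3: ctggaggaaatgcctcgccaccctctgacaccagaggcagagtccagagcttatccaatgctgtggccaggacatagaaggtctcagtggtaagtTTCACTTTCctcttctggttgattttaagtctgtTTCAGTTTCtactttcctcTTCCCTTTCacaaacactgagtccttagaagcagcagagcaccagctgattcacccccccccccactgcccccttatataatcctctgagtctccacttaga
Ifit3, a partner of Ifit1, had 9.32 at ZT26, against 8.39 at ZT22. The core was found in 14 of 30 interferon-stimulated genes with a promoter entry (46.7%), in 12 of the 47 genes that rose (25.5%), in 5 of 36 that rose and are not on the list (13.9%), in 2 of the 27 that fell (7.41%) and in 7.15% of all tested genes.

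Some steps had no counterpart on the day before. Cyp2b9, a cytochrome P450 known for higher levels in female mice, had 10.14 at ZT26, against 8.46 at ZT22 (3.21-fold), but 7.40 at ZT02, which made it the highest point of ZT26 minus ZT02 (2.74). Its 7 values in time order were 7.40, 6.13, 8.32, 8.20, 10.48, 8.46 and 10.14, so that ZT18 and ZT26 were high and the dawn arrays stood far apart.

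The genes that rose and those that fell also differed in how they stood on arrays that the step does not use. ZT02 minus ZT18 compares dawn with mid-night in other pools. The 38 genes that fell had a median of -1.05 there, 32 of them were lower at ZT02 (84.2%, over all genes 52.8%), and 27 were at least 1.5-fold lower (over all genes 1.67%). The 67 that rose had a median of 0.19, 44 were higher at ZT02 (65.7%, over all genes 41.2%), and 20 were at least 1.5-fold higher (over all genes 1.06%). Medians of ZT26 minus ZT02 were 0.50 for the genes that rose and -0.11 for those that fell. Of the 67 rises, 34 were lowest at ZT14 (50.7%, over all genes 17.7%), and of the 38 falls, 16 were highest at ZT14 (42.1%, over all genes 18.2%). All 16 interferon-stimulated genes that rose are among those 34. By the choice of genes no rise can be lowest at ZT26 and no fall highest there, so these shares are not like for like with all genes. The ZT26 values of rises and falls were used to choose the genes, so it is a description only that 46 of the rises were highest at ZT26 (over all genes 19.3%) and 18 of the falls lowest there (over all genes 11.1%).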

How the data were processed

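Liver RNA pools, 1 per time point, had been hybridised to Affymetrix Mouse Gene 1.0 ST arrays. The authors made the deposited log2 values with RMA in Affymetrix Expression Console 1.1.2637.26569, per the submitters' processing notes, so that background correction, quantile normalization and the summary over probes preceded deposit (890 tested probe sets have the same value at ZT26 and ZT22). Of 35556 features, 21789 had 1 gene symbol in the platform annotation (21698 were found in RefSeq by Entrez ID), 1621 had several and 12146 are not named here. Differences between arrays, counts past 1.5-fold and robust SDs were computed with Python 3.11.15, numpy 2.4.6 and pandas 2.3.3, after a check on simulated data. Intensities give no counts, and the number of arrays limits the precision.

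The 1.5-fold, the minimum of 85 units and the background of 43 units are those of the study's methods. Named genes were the 12 with the widest rise and the 12 with the widest fall (predicted genes and olfactory receptors not named), all tested clock genes, up to 3 members of each other list past 1.5-fold or else the 1 with the largest step, and genes whose step opposed ZT02 minus ZT22. Others serve as examples or as members of the interferon list. The 27 pathway and 8 marker lists hold 531 genes, of which 425 were tested, 43 were below the minimum and 63 had no probe set of 1 symbol. Genes, lists and thresholds were chosen with earlier results of these data known. Alternatives were no minimum, 170 units, a fold of 2, the 99th percentile of the noise, centring, repeated quantile normalization, subtraction of 43 units with a floor of 10, 1 probe set per gene, other probe sets and ZT02 in place of ZT26, with the interferon list left out and ZT02 minus ZT18 added after seeing the data. Sequencing data on chromatin were not used here.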

Additional observations from a re-analysis of the deposited data

Results flagged for a closer look

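Cyp2b9, a cytochrome P450, and Olfr767, annotated as an olfactory receptor gene, passed 1.5-fold in opposite directions on the 2 dawn arrays. Cyp2b9 was 1.68 higher in log2 at ZT26 than at ZT22, while ZT02 minus ZT22 was -1.06. Olfr767 had a step of -0.73, while ZT02 minus ZT22 was 0.59. Both differences of a gene use the same ZT22 array, each array is 1 pool, and the difference between the days was not tested.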

How the results depend on the processing

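The counts of 68 rises and 38 falls depend on the thresholds. Without an expression minimum there were 127 and 66, with a fold of 2 there were 13 and 11, and after subtraction of 43 units, which widens the folds of weak signals, 172 and 122. With ZT02 in place of ZT26, 45 rose and 54 fell, and ZT02 minus ZT18 gave 120 and 202; the cause was not tested. Counts stayed within 1.5 times under the other settings. There were 49 and 37 at 170 units, 54 and 44 with centring, and 66 and 42 with repeated quantile normalization. These settings also gave 67 and 38 by genes and 99 and 50 at the 99th percentile of the noise. Leaving out the interferon list gave 52 and 38. Centring moved the median of all steps by 0.04. The noise scale was 0.12 as a robust SD and 0.17 as an SD. Of 56 genes named by the rule, 10 changed sign with ZT02 in place of ZT26. Of these, 3 had passed 1.5-fold, with -1.06 for Cyp2b9, -0.34 for Cyp4a14 and 0.59 for Olfr767, and 7 had not, with 0.98 for Saa1, 0.19 for Pck1 and values within 0.12 of 0 for 5 others. With that array 19 steps stayed within the noise of the main value. Subtraction of 43 units moved 23 of them, quantile normalization 1 (Per3, -1.19), and centring none, though Jun then missed 1.5-fold. The other probe set of Ciart gave -0.26. No paired analysis was possible because each time has 1 array, and for the same reason no array could be left out of a comparison. Weak signals near background limit the folds of Ciart, Per3 and Per1.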

Other observations

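Other genes past 1.5-fold, named here after their values were seen, include both small nucleolar RNAs of the Snora73 pair, Snora73a (9.79 at ZT26, against 10.39 at ZT22 and 10.90 at ZT02) and Snora73b (10.16 at ZT26, against 10.78 at ZT22 and 11.22 at ZT02). Both were lower at ZT26 than on either other array, and their near-identical sequences may share probes. Among hepatocyte transcription factors, Onecut1 had 9.68 at ZT26, against 10.55 at ZT22, with 9.62 at ZT02. Foxq1, a forkhead factor, had 9.40 at ZT26, against 8.47 at ZT22, with 8.78 at ZT02. St3gal5, which makes the ganglioside GM3, had 9.36 at ZT26, against 10.22 at ZT22, with 9.49 at ZT02. Cyp26a1, which degrades retinoic acid, had 8.36 at ZT26, against 9.17 at ZT22 and 9.06 at ZT02, so that here the 2 dawn arrays differed. Serpina7, for thyroxine-binding globulin, had 9.10 at ZT26, against 8.08 at ZT22, with 8.80 at ZT02. Loxl4, a lysyl oxidase, rose on both of its probe sets, by 0.71 and 0.62.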
